A study of Mus musculus with 15 samples.

Results

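The mature microRNAs of the foetal mouse testis were compared between Tex15-/- and control animals at E16.5, a foetal stage. The members are all 1305 names annotated as mature microRNA in any of the 6 small RNA libraries, and these libraries are 6 of the 15 samples of the series. The control group is Tex15+/- (n = 3 libraries) and the other group is Tex15-/- (n = 3), both on a mixed B6CBAF1/Crl and C57BL/6N background, so that the controls also carry 1 copy of the null allele. The null allele is an insertion made with CRISPR/Cas9 in a coding exon and comes from 1 founder line. Each library was made from the RNA of 6 whole foetal testes, selected for small RNAs and prepared with an adapter ligation kit. Germ cells are a minority of such a testis, and in whole tissue fewer cells of a type and less RNA per cell cannot be told apart. Counts were summed per microRNA name and scaled to the total of mature microRNA reads, so every level here is a share of the microRNAs and not an amount per cell.

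MicroRNAs are about 22 nt long, are cut by Dicer from the 2 arms of a hairpin (5p and 3p) and guide Argonaute proteins to messenger RNAs mainly through the seed, which is bases 2 to 8 of the mature strand. They are made without the PIWI proteins, whereas piRNAs, the longer small RNAs of gonocytes, guide PIWI proteins to transposons. TEX15 is a nuclear protein of male germ cells that works with the PIWI protein MIWI2 in piRNA-guided silencing of transposons. The microRNAs of the same libraries were therefore compared as the other main class of small RNA. In the testis, let-7 microRNAs are found in most differentiated cells, miR-202 is a gonad microRNA expressed in Sertoli cells, miR-126a marks endothelium, and the miR-290 and miR-302 clusters mark pluripotent and early germ cells.

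Mature sequences are shown for the microRNAs that fill most of the profile and for those that differed most, with the seed in capitals, from RefSeq on GRCm38.p6. The table used holds 1094 of the 1305 names. The leading names fall into few seeds, and the members of the let-7 family differ only outside the seed.
miR-148a-3p: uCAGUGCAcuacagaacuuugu
let-7i-5p: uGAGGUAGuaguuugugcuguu
let-7c-5p: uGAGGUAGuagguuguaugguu
let-7b-5p: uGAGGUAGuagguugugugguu
let-7f-5p: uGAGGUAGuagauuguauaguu
miR-99a-5p: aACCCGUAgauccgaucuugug
miR-99b-5p: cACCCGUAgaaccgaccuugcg
miR-10b-5p: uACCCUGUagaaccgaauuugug
miR-26a-5p: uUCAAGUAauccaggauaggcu
miR-126a-3p: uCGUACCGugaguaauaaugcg
The miR-17 seed is shared by the members of a proliferation-associated family that are described further on.
miR-17-5p: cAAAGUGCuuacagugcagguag
miR-20a-5p: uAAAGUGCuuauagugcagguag
miR-93-5p: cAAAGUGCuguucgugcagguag
miR-106b-5p: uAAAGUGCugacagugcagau
The mature strands of miR-199a-3p and miR-199b-3p are identical, so that a read cannot show from which hairpin it came.
miR-199a-3p: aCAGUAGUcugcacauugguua
miR-199b-3p: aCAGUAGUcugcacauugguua
Of the names that passed the test and have an entry, one is found in B1 repeats and the other is mostly a UG repeat.
miR-3470b: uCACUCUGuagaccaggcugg
miR-574-5p: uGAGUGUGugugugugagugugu
The annotated copy of miR-3470b lies at chr16:44013885-44013905 on the plus strand, in an intron of Gramd1c on the opposite strand, and miR-574-5p lies at chr5:64970328-64970350 on the plus strand, in an intron of Fam114a1 on the same strand. miR-148a-3p, the leading microRNA, lies at chr6:51269829-51269850 on the minus strand and overlaps no other annotated gene.

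The control libraries held 5992694, 34180789 and 8538718 mature microRNA reads and the Tex15-/- libraries 7009267, 5671330 and 9513673. Between 911 and 1164 names had a read in a library, with the most in the deepest library, control 2, and 349 to 374 names were above 10 RPM, the unit used below for reads per 1000000 mature microRNA reads of the library. Tex15-/- replicate 2 stood apart: its correlation with the other libraries over log2 levels was 0.975 to 0.986, against 0.988 to 0.996 among the other 5, and of 164 names with at least 100 RPM in every library it was the Tex15-/- library farthest from the control mean for 105. Among those names, the 30 with under 40% G+C lay at a median of -0.67 (log2) from the control mean in this library, -0.39 in Tex15-/- replicate 1 and -0.09 in replicate 3, while the 71 with 50% G+C or more lay at 0.01, -0.02 and -0.02. The part of base composition in the differences between the groups was not tested. Small RNA reads within the Tex15 transcript were few, at 0.691 to 1.73 per 1000000 reads of 18 to 32 nt in the controls and 1.15 to 4.92 in Tex15-/-, and none crossed the cut site in any library, so these data do not check the genotype. The names that the tables give the libraries were those of their groups. Nothing in the labels says whether the pools came from separate litters, so p-values measure the spread between these libraries.

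The same few microRNAs led the profile in both genotypes. The 10 most abundant names held 64.8%, 62.5% and 62.8% of mature microRNA reads in the controls and 64.5%, 63.9% and 63.9% in the Tex15-/- libraries. miR-148a-3p took 21.9%, 18.5% and 15.1% in the controls and 21.9%, 20.3% and 18.8% in Tex15-/-, and the groups overlapped. It exceeded the whole let-7 family except in control 3. The fitted log2 difference of 0.13, with a standard error of 0.17, did not pass the test (adjusted p = 0.667, edgeR quasi-likelihood test), and ± is used for this error after every log2 fold change. The error was derived from the test, as the absolute log2 fold change divided by the square root of its F statistic. miR-99a-5p followed with 11.1%, 12.03% and 11.95% in the controls and 9.19%, 7.26% and 10.8% in Tex15-/-. The Tex15-/- values were all lower, with a log2 fold change of -0.36 ± 0.17 (adjusted p = 0.356). miR-10b-5p, encoded in the Hoxd cluster, took 6.84%, 6.63% and 7.63% in the controls and 9.99%, 8.75% and 7.08% in Tex15-/- (log2 fold change 0.29 ± 0.16, adjusted p = 0.399), with overlapping groups. The rest of the leading names, miR-26a-5p, let-7i-5p, let-7c-5p, miR-126a-3p, miR-99b-5p, miR-199b-3p and let-7f-5p, had means over the 6 libraries from 2.02% to 5.15%, log2 fold changes between -0.34 and 0.55 and adjusted p-values of 0.355 or above. None of these 10 passed the threshold.

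**Figure D1:**
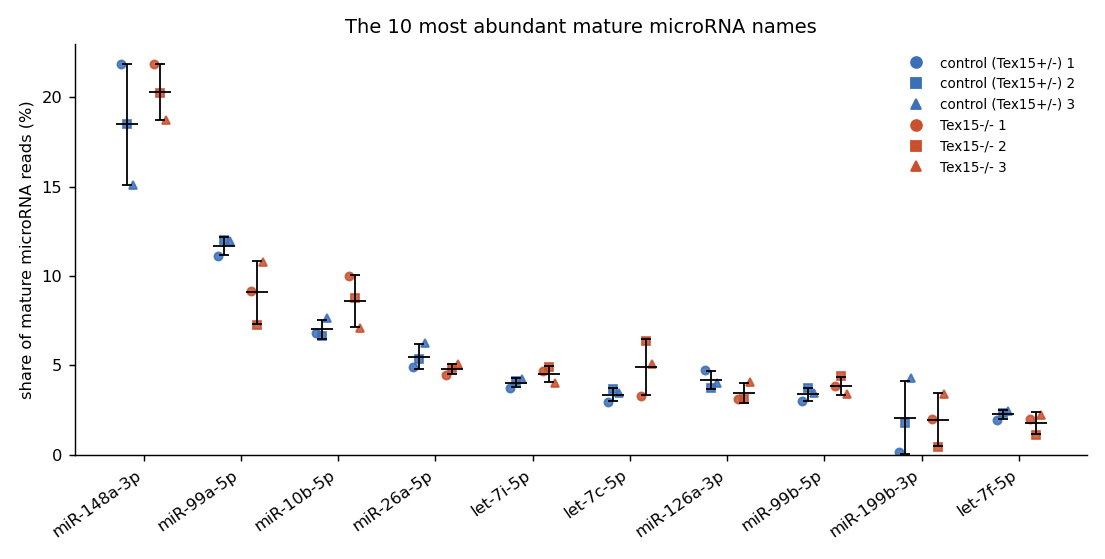
Share of mature microRNA reads (%, y axis) of the 10 most abundant names in the 3 control and 3 Tex15-/- libraries, with a symbol for each library, the mean (bar) and the SD. miR-148a-3p is near 20% in both groups, the Tex15-/- values of miR-99a-5p lie below all controls, and miR-199b-3p varies between 0.186% and 4.28% within the controls.

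Grouped by seed, the profile was narrower still. The 10 leading seeds held 74.2% to 76.3% of the reads in every library. The seed CAGUGCA of miR-148a, miR-148b and miR-152 had 18.98 ± 3.40% in the controls and 20.6 ± 1.52% in Tex15-/- (mean ± SD, n = 3 each). The seed GAGGUAG of let-7 and miR-98 had 14.1 ± 1.64% and 16.2 ± 1.72%, and the seed ACCCGUA of miR-99a, miR-99b and miR-100 had 15.5 ± 0.908% and 13.4 ± 1.32%. For the let-7 seed the single libraries gave 12.2%, 14.9% and 15.2% against 14.3%, 17.6% and 16.6%, so the groups overlapped. For the miR-125 seed CCCUGAG they gave 2.53%, 2.68% and 2.73% against 2.15%, 1.87% and 2.42%, with all 3 Tex15-/- values below the controls. No test was made on seeds.

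The kind of reads was compared by 5 shares, and for the share of U at position 1 and that of 22 nt reads the genotypes did not overlap. Mature microRNAs were 43.4%, 41.0% and 42.0% of reads of 18 to 32 nt in the controls and 41.6%, 50.6% and 45.5% in Tex15-/-, a difference of 3.74 percentage points with overlapping groups (exact permutation test, two-sided, p = 0.3), and of 1.40 points without Tex15-/- replicate 2. The share of 22 nt reads was 59.4%, 60.01% and 59.2% in the controls and 61.6%, 64.5% and 61.3% in Tex15-/-. All 3 Tex15-/- values were higher, and the difference of 2.89 points had p = 0.1, the smallest that this exact permutation test of 3 against 3 can give (adjusted over 5 shares, 0.25). It was 1.87 points without Tex15-/- replicate 2. With miR-148a-3p left out of all reads it was 2.56 points, and the groups overlapped. The shares were then 48.2%, 51.0% and 52.1% in the controls and 50.9%, 55.5% and 52.4% in Tex15-/-. With each distinct sequence counted once the difference was 0.747 points, with 14.3%, 12.7% and 13.8% in the controls and 14.1%, 15.0% and 13.96% in Tex15-/-, which overlapped. The share of reads with U at position 1, a common first base of Argonaute-bound RNAs, was 66.5%, 65.4% and 64.9% in the controls and 69.6%, 71.1% and 67.1% in Tex15-/-, again without overlap and with p = 0.1 in the exact permutation test (adjusted 0.25). miR-148a-3p, let-7c-5p and miR-10b-5p, which all start with U, had the largest positive parts in the difference of 3.63 points, at 1.801, 1.54 and 1.33 points. miR-26a-5p, miR-126a-3p, let-7f-5p and let-7g-5p had negative parts of -0.693, -0.677, -0.477 and -0.450 points. With miR-148a-3p left out of all reads the difference was 3.64 points, without Tex15-/- replicate 2 it was 2.73, and with each distinct sequence counted once it was 0.757 with overlapping groups. Reads that began at the most frequent 5′ end of their name made up 97.4 ± 0.111% in the controls and 97.3 ± 0.198% in Tex15-/- (p = 0.4, exact permutation test). Of 288 names with at least 100 reads in every library, 170 had at least 99% of reads at 1 start in every library and 28 had under 90%.

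Few single microRNAs passed the test. Of 580 names with enough reads, 5 (0.862%) had an adjusted p under 0.05, of which 3 (0.517%) were higher in Tex15-/- and 2 (0.345%) lower. The higher names were miR-466b-3p, miR-574-5p and miR-669c-5p, and the lower names were miR-3470b and miR-669a-3p. None passed without control 1 or without control 2 (48 and 52 at an unadjusted p under 0.05 in edgeR), 2 passed without Tex15-/- replicate 1, and 5 without replicate 2. DESeq2 called 14. The filter on low counts kept miR-466b-3p only through the Tex15-/- libraries, because it had 0, 3 and 0 reads in the controls. A stricter filter, of 10 counts for each single library, dropped this name, and edgeR then called 2 higher and 2 lower names. Of the 580 names, 22 (3.79%) were higher and 53 (9.14%) lower at an unadjusted p under 0.05 in edgeR. All 3 Tex15-/- libraries lay above all controls for 39 names (6.72%) and below them for 101 (17.4%). The median log2 fold change of all 580 names was -0.15, and 374 of them were below 0. TMM factors, the total of 18 to 32 nt reads or DESeq2 size factors in place of the microRNA total move this median up by 0.14, 0.12 and 0.11, so a small negative value is near the middle of all names. In 417 names (71.9%) the absolute log2 fold change was under 0.5, with a median standard error of 0.27 over all names. The median coefficient of variation between libraries was 15.4% in the controls and 24.9% in Tex15-/-.

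**Figure D2:**
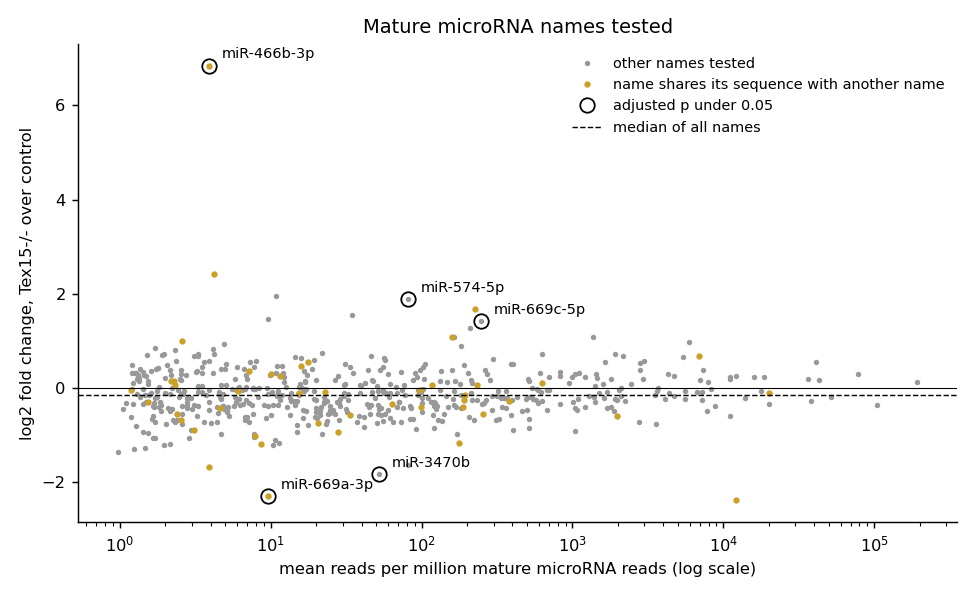
Log2 fold change of Tex15-/- over control (y axis) against the mean level in RPM (x axis, log scale) for the 580 names tested. Circles mark the 5 names with an adjusted p under 0.05, the dashed line is the median of -0.15, and yellow points are the names that share at least 20% of the reads of either name with another, among them miR-466b-3p and miR-669a-3p.

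miR-3470b was lower in every Tex15-/- library. It had 77.3, 74.0 and 92.9 RPM in the controls and 29.1, 19.2 and 20.3 in Tex15-/-. The groups did not come near each other, and the log2 fold change was -1.83 ± 0.23 (adjusted p = 0.014, edgeR quasi-likelihood test). Its 21 nt sequence has 42847 exact matches in the 21 chromosomes of GRCm38.p6, whereas the median of the tested names is 1 match and 551 of 580 have 1 to 3. It is part of B1, an abundant short interspersed element of the mouse genome. Among the 8 tested names with at least 100 matches, miR-3470b and miR-574-5p passed the test, against 0.862% of all names. miR-3470a had 95.6, 116.8 and 157 RPM in the controls and 65.8, 18.3 and 35.7 in Tex15-/- (log2 fold change -1.62 ± 0.45, adjusted p = 0.264). It was called by DESeq2, with or without names joined, by edgeR without the filter on low counts, and by edgeR with names joined and Tex15-/- replicate 1 left out. The groups did not overlap for miR-3470a, nor for miR-3471 (-1.21 ± 0.48, adjusted p = 0.355) and miR-1194 (-1.18 ± 0.51, adjusted p = 0.355), which all have over 2000 matches. Of all names, 17.4% lay below the controls in this way. A name without a reference sequence was matched to the genome by its most frequent read. The sequences matched for miR-3470a, miR-1194 and miR-3473a were 20, 16 and 18 nt long, and a shorter sequence can match more places. miR-690, with 599 matches, overlapped between the groups. miR-3473b, with 25146 matches, had groups without overlap under its own name (-1.68 ± 0.38, adjusted p = 0.21) and was called by DESeq2 and by edgeR without the filter on low counts, but a sequence that carried this name in the controls was named miR-3473a in Tex15-/-. Under its own name miR-3473a, with 9705 matches, was at 0.36 ± 0.27 with overlapping groups. Joined, miR-3473a, miR-3473b and miR-3473e had 15.7, 14.1 and 12.2 RPM in the controls and 13.1, 8.99 and 11.98 in Tex15-/-, which overlapped (-0.29 ± 0.24, adjusted p = 0.507, edgeR). The call of miR-3470b was lost without control 1 and without control 2, and over 28 settings it was made in 23, with adjusted p-values up to 0.0823.

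miR-1195, with 2 exact matches of its whole 23 nt sequence in the genome, was among the names with the smallest p-values. Matches of a part of the sequence were not counted, so this number does not show whether a part lies in a repeat. miR-1195 had 14.7, 11.995 and 16.9 RPM in the controls and 8.27, 5.29 and 6.62 in Tex15-/-, without overlap (-1.10 ± 0.26, adjusted p = 0.21, edgeR).

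The reads that carry the start of miR-3470b were mostly longer than a microRNA. All reads that begin with its first 16 nt were taken from the tables, whatever their annotation. Of those of 18 to 32 nt, 66.6%, 70.3% and 73.0% in the controls and 64.3%, 61.0% and 71.6% in Tex15-/- were 25 to 30 nt long, the length of piRNAs. For miR-148a-3p that share was 0.018% to 0.0291%. Only 15.0% to 19.7% of the reads that begin like miR-3470b were annotated as the mature microRNA. Both the longer and the shorter reads were fewer in every Tex15-/- library. Per 1000000 reads of 18 to 32 nt, those of 25 to 30 nt numbered 100.4, 106.1 and 164 in the controls and 40.6, 26.4 and 30.1 in Tex15-/-, and those of 18 to 24 nt 40.0, 35.7 and 47.2 against 18.5, 13.8 and 9.44. The ratio of the group means was 0.262 for the longer and 0.34 for the shorter reads. The reads that begin like miR-3470a were 77.9% to 82.9% 25 to 30 nt long, and their ratios were 0.274 and 0.31. Whether the short reads of these names are microRNAs or pieces of longer B1 RNAs was not tested. Of the reads that begin like miR-1195, only 8.04% to 12.9% were annotated as the mature microRNA. Of those of 18 to 32 nt, 6.67% to 8.69% were 25 to 30 nt long. The ratio of the group means was 0.33 for these longer reads and 0.361 for those of 18 to 24 nt. The origin of the miR-1195 reads was not tested either.

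**Figure D3:**
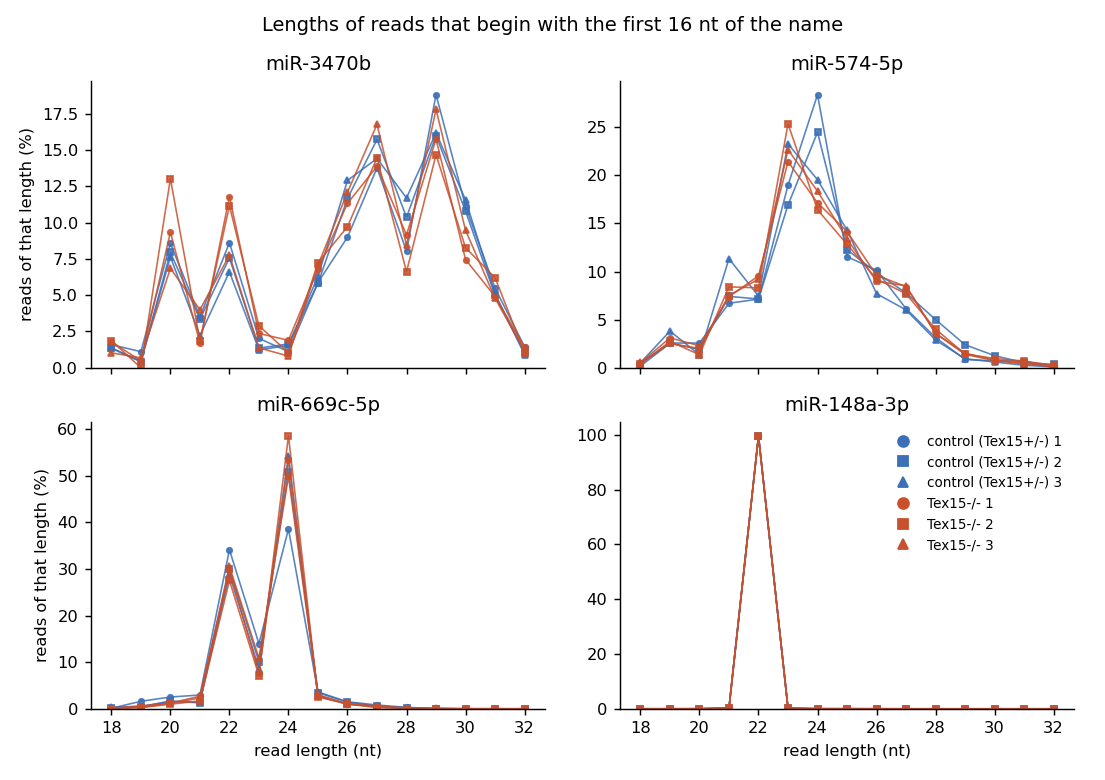
Length distribution (x axis, nt) of the reads that begin with the first 16 nt of 4 mature microRNAs, as percent of such reads of 18 to 32 nt (y axis), with a line for each library. miR-148a-3p has a single peak at 22 nt, miR-669c-5p peaks at 22 and 24 nt, miR-574-5p has a broad peak around 23 and 24 nt, and miR-3470b has most reads at 25 to 30 nt in every library of both groups.

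miR-574-5p was higher in every Tex15-/- library, with 36.2, 24.7 and 43.0 RPM in the controls and 128.1, 145.1 and 109 in Tex15-/-. The groups were far apart, and the log2 fold change was 1.88 ± 0.26 (adjusted p = 0.016, edgeR quasi-likelihood test). The call was lost without control 1, without control 2 and without Tex15-/- replicate 1. The groups overlapped for the other arm of the same hairpin, miR-574-3p, which had 49.7, 62.3 and 64.1 RPM in the controls and 42.1, 68.1 and 53.5 in Tex15-/- (log2 fold change -0.11 ± 0.23, adjusted p = 0.805). The 5p name made up 42.1%, 28.4% and 40.2% of the reads named after this hairpin in the controls and 75.3%, 68.1% and 67.0% in Tex15-/-. The mature sequence of miR-574-5p has 858 exact matches in the genome, and 24.3% to 30.7% of the reads that begin with its first 16 nt were annotated as this microRNA. Of such reads of 18 to 32 nt, 32.4% to 38.5% were 25 to 30 nt long in the controls and 36.1% to 38.1% in Tex15-/-. The 25 to 30 nt reads numbered 16.54, 15.96 and 18.9 per 1000000 reads of 18 to 32 nt in the controls and 78.3, 98.0 and 64.4 in Tex15-/-, and the groups did not overlap.

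miR-669c-5p, of the large cluster in an intron of Sfmbt2, was the other higher name with a sequence of its own. It had 120.3, 137.5 and 145.7 RPM in the controls and 388, 412.4 and 283 in Tex15-/-. No Tex15-/- library overlapped the controls, and the log2 fold change was 1.42 ± 0.21 (adjusted p = 0.0195, edgeR quasi-likelihood test). The call was lost without any 1 of the controls and without Tex15-/- replicate 1, and over 27 settings it was made in 18, with adjusted p-values up to 0.163. Reads that begin with its first 16 nt were mostly 22 and 24 nt long, with 3.88% to 6.23% at 25 to 30 nt, and 27.7% to 38.5% of them were annotated as mature. All 18 to 24 nt reads with this start numbered 126.8, 174.5 and 188 per 1000000 reads of 18 to 32 nt in the controls and 494.05, 723 and 374 in Tex15-/-. The members of the cluster, a list taken by family names and not by position, lay on both sides of 0: of 70 names detected and 30 tested, 2 were called higher (0.517% of all names) and 1 lower (0.345%), 11 were above 0 and 19 below, and the median was -0.16. Several of these names, with the called miR-466b-3p and miR-669a-3p among them, share sequences with other names. These counts therefore depend on the name that a shared sequence was given in each library. The list summed to 0.0556% to 0.0599% of reads in the controls and 0.0694% to 0.0753% in Tex15-/-. Without miR-669c-5p the rest summed to 0.0479%, 0.0419% and 0.0433% in the controls and 0.0306%, 0.0315% and 0.0469% in Tex15-/-, and the groups overlapped. miR-467a-5p and miR-467c-5p, the next most abundant members, had log2 fold changes of -0.40 ± 0.36 and -0.15 ± 0.23 (adjusted p = 0.552 and 0.733).

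The remaining calls rested on names that share a sequence. In the tables every distinct sequence has 1 name, but some mature sequences had different names in different libraries, and these held 1.57% to 4.53% of the mature reads of a library. miR-466b-3p had 0, 3 and 0 reads in the controls and 44, 24 and 122 in Tex15-/-, and its log2 fold change of 6.84 therefore depends on the prior count of the fit. Nearly all of these reads are 1 sequence, which was named miR-466e-3p in control 1 and miR-466c-3p in the other controls. Those names share further sequences with miR-466a-3p, miR-466d-3p and miR-466p-3p, and miR-466a-3p alone was at -1.18 ± 0.27 (adjusted p = 0.21). Joined, these 6 names had 26.7, 32.4 and 32.8 RPM in the controls and 17.98, 13.2 and 33.4 in Tex15-/-, which overlapped (log2 fold change -0.50 ± 0.32, adjusted p = 0.412). miR-669a-3p had 84, 520 and 160 reads in the controls and 24, 12 and 39 in Tex15-/-, while miR-669o-3p had 2, 18 and 28 against 39, 32 and 93. Joined, the pair had 14.4, 15.7 and 22.02 RPM against 8.99, 7.76 and 13.9 (log2 fold change -0.75 ± 0.29, adjusted p = 0.286). Names were then joined where either name of a pair shared at least 20% of its reads, a choice made after seeing the data. With 64 names joined into 27 groups, 557 names were tested and 3 were called (0.539%), namely miR-3470b, miR-574-5p and miR-669c-5p, with adjusted p-values of 0.00593, 0.00593 and 0.0107.

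Among the abundant microRNAs the same splitting was seen in miR-199a-3p and miR-199b-3p, whose identical mature strands are printed above. miR-199a-3p took 3.66%, 2.32% and 0.174% in the controls and 0.296%, 0.838% and 0.0471% in Tex15-/-, and miR-199b-3p took 0.186%, 1.79% and 4.28% against 2.03%, 0.432% and 3.40%. Neither name separates the groups, and both vary more than 10-fold among the controls. Their sum is steadier, with 38494, 41084 and 44571 RPM in the controls against 23248, 12701 and 34476 in Tex15-/-. All Tex15-/- values of the sum were below the controls (log2 fold change -0.82 ± 0.30, adjusted p = 0.286, edgeR with names joined). The sum of miR-486a-5p and miR-486b-5p, a microRNA of erythroid cells and muscle, had 330, 291 and 324 RPM in the controls and 451.4, 744 and 360.0 in Tex15-/- (log2 fold change 0.72 ± 0.27, adjusted p = 0.286). Under its own name miR-486b-5p was called by DESeq2, and by edgeR without the filter on low counts or without Tex15-/- replicate 3. The joined pair was not called in any setting.

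**Figure D4:**
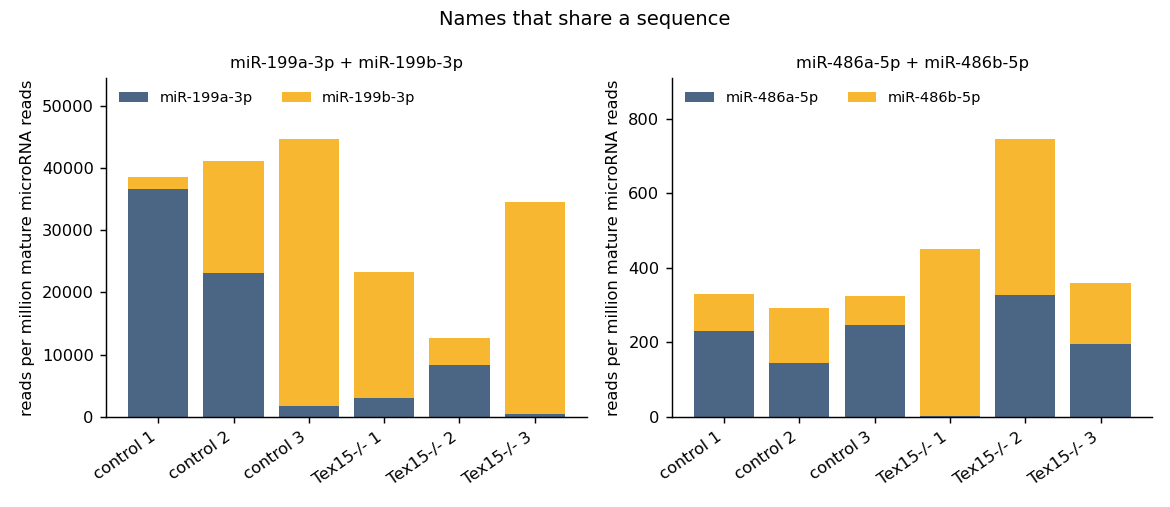
RPM (y axis) of 2 pairs of names with a shared sequence in each of the 6 libraries, with 1 colour for each name of the pair. The split between the names changes from library to library, and the summed height is lower in the 3 Tex15-/- libraries for miR-199a-3p with miR-199b-3p and higher for miR-486a-5p with miR-486b-5p.

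The let-7 family, which holds back proliferation and rises during differentiation, made up 12.2%, 14.9% and 15.2% of the reads in the controls and 14.3%, 17.7% and 16.6% in Tex15-/-. Of 23 names detected, 17 were tested and none was called by edgeR, with 2 higher and 1 lower at an unadjusted p under 0.05 (3.79% and 9.14% of all names), while DESeq2, and edgeR without the filter on low counts, called let-7b-5p. The median log2 fold change was 0.17, against -0.15 for all names, with 9 above 0 and 8 below. Members with the same seed lay on both sides. let-7b-5p had 3244, 4247 and 4440 RPM in the controls and 6049, 10536 and 7076 in Tex15-/-. The groups did not overlap, and the log2 fold change was 0.99 ± 0.24 (adjusted p = 0.21, edgeR quasi-likelihood test). let-7e-5p was likewise without overlap (0.68 ± 0.25, adjusted p = 0.355), and let-7c-5p, with 29641, 36622 and 34786 against 33071, 63789 and 50626, overlapped (0.55 ± 0.24, adjusted p = 0.355). let-7g-5p had 11048, 13363 and 15719 RPM in the controls and 10334, 5686 and 10590.4 in Tex15-/- (-0.59 ± 0.26, adjusted p = 0.355). let-7f-5p overlapped between the groups (-0.34 ± 0.27, adjusted p = 0.524). In Tex15-/- replicate 2, the library that stood apart, let-7b-5p, let-7c-5p and let-7e-5p were at their highest of the 6 libraries and let-7f-5p and let-7g-5p at their lowest. The mature sequences of the first 3 have 40.9% to 45.5% G+C and those of the other pair 31.8% and 36.4%. let-7a-5p, also with 36.4% G+C, had 20803 RPM in this library, above the controls at 12569, 18602 and 19853.

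**Figure D5:**
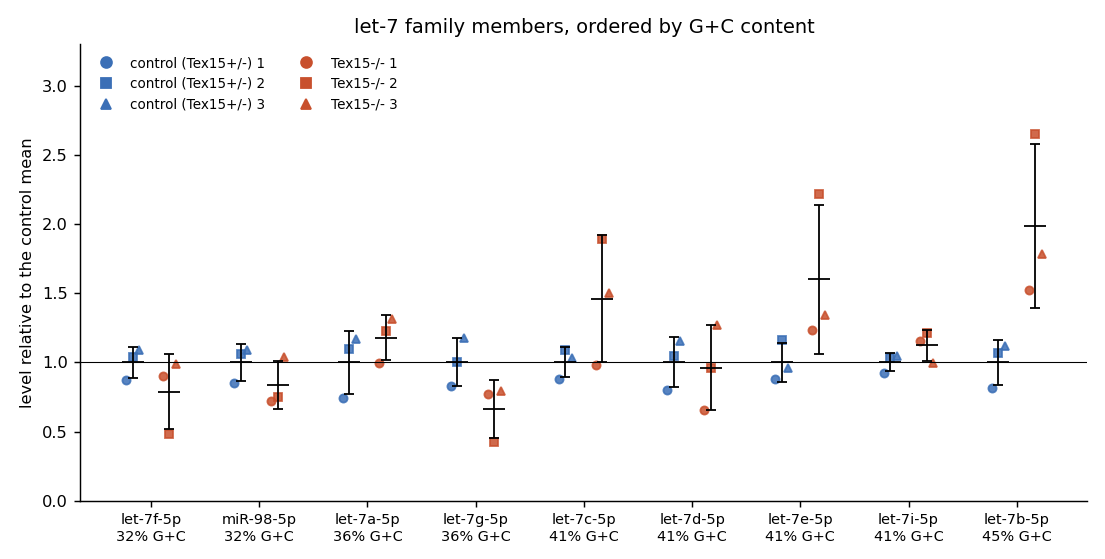
Level of 9 let-7 family members relative to the control mean (y axis, linear) in each library, ordered by the G+C content of the mature sequence, with the mean (bar) and SD of each group. In Tex15-/- replicate 2 (square) let-7f-5p and let-7g-5p lie farthest below the control mean, and let-7b-5p and let-7e-5p farthest above it.

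The miR-17-92 cluster and its paralogs, which promote proliferation, were 1.11%, 1.14% and 1.216% of the reads in the controls and 1.01%, 0.975% and 1.06% in Tex15-/-. Of 27 names detected, 20 were tested and none was called by edgeR or DESeq2. Their median log2 fold change was -0.32 against -0.15 for all names, with 14 below 0 and 6 above, and for 7 the 3 Tex15-/- libraries lay below all controls (17.4% of all names). At an unadjusted p under 0.05 in edgeR, 6 were lower and none higher, against 9.14% and 3.79% of all names. The 4 members printed above with the seed AAAGUGC were among the lower names. miR-20a-5p had 1408, 1218 and 1469.9 RPM in the controls and 721, 515 and 953 in Tex15-/- (-0.90 ± 0.24, adjusted p = 0.262, edgeR quasi-likelihood test), and the groups did not overlap. miR-17-5p was at -0.84 ± 0.26, miR-106b-5p at -0.86 ± 0.24 and miR-93-5p at -0.65 ± 0.22, with adjusted p-values of 0.326, 0.264 and 0.355. Without Tex15-/- replicate 3 edgeR called miR-17-5p, and with names joined as well it called miR-17-5p, miR-20a-5p and miR-106b-5p. miR-25-3p, the most abundant member, has another seed and had 6392, 7072 and 7338 RPM in the controls and 6688, 6249 and 6745 in Tex15-/- (-0.08 ± 0.14, adjusted p = 0.758). miR-106b-3p, the other arm of miR-106b, was at 0.25 ± 0.20 (adjusted p = 0.525).

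The microRNAs tied to germ cells and to the testis showed no call by edgeR or DESeq2. At an unadjusted p under 0.05, edgeR gave 1 higher and 2 lower in the miR-290 and miR-302 clusters and 1 higher and 5 lower in the X-linked cluster, against 3.79% higher and 9.14% lower of all names. With names joined and without Tex15-/- replicate 3, edgeR called miR-290a-5p and miR-292a-5p. The miR-290 and miR-302 clusters took 0.345%, 0.313% and 0.331% in the controls and 0.428%, 0.475% and 0.314% in Tex15-/-, with 13 of 21 names tested and a median of -0.21. miR-292a-5p, the leading member, had 1713, 1670.4 and 1659 RPM in the controls and 2737, 3625 and 1684 in Tex15-/- (0.67 ± 0.27, adjusted p = 0.355). miR-292a-3p and miR-293-3p were at -0.20 ± 0.36 and -0.26 ± 0.20, and miR-290a-5p, at about 10 RPM in the controls, at -1.03 ± 0.25 (adjusted p = 0.21). The miR-302 names were all under 4 RPM in every library, and miR-367-3p had at most 1 read. The X-linked testis cluster took 1.43%, 1.63% and 1.57% in the controls and 1.65%, 1.66% and 1.42% in Tex15-/-, with 26 of 36 names tested and a median of -0.21. Its leading member miR-881-3p had 7162, 7940.2 and 7091 RPM in the controls and 7218, 6814 and 6958 in Tex15-/- (-0.08 ± 0.13, adjusted p = 0.758). miR-871-3p and miR-470-5p were at 0.25 ± 0.21 and 0.25 ± 0.20, and the 5p arm miR-871-5p at -0.54 ± 0.19 (adjusted p = 0.355). miR-878-3p had 17.02, 19.02 and 22.8 RPM in the controls and 8.42, 9.87 and 12.3 in Tex15-/- (-0.94 ± 0.23, adjusted p = 0.21, edgeR). For 8 of the 26 names the Tex15-/- libraries lay below all controls and for 1 above, against 17.4% and 6.72% of all names.

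The imprinted Dlk1-Dio3 cluster on chromosome 12 was a large component, at 9.27%, 9.35% and 9.63% in the controls and 9.99%, 10.5% and 9.33% in Tex15-/-. Of 98 names detected, 80 were tested and none was called by edgeR, with 1 higher and 2 lower at an unadjusted p under 0.05 (3.79% and 9.14% of all names), while DESeq2 called miR-485-5p. With names joined and without Tex15-/- replicate 3, edgeR called miR-154-3p and miR-485-5p. The median of -0.08 lay close to that of all names. Its leading members miR-379-5p, miR-541-5p and miR-381-3p were at -0.07 ± 0.15, 0.25 ± 0.15 and 0.23 ± 0.15 (adjusted p-values of 0.427 or above), and miR-485-5p at 0.90 ± 0.24 (adjusted p = 0.262). The miR-29 and miR-148 families, which target DNA methyltransferases, took 22.4%, 19.1% and 15.6% in the controls and 22.2%, 20.5% and 19.2% in Tex15-/-, almost all of it miR-148a-3p. miR-152-3p, of the same seed, had 4393, 4615 and 4427 RPM in the controls and 2802, 1317 and 3783 in Tex15-/-. Its Tex15-/- values all lay below the controls but were widely spread (-0.77 ± 0.34, adjusted p = 0.355), and miR-148b-3p was at 0.20 ± 0.17. The 8 tested names of these families had a median of -0.02, with 1 lower at an unadjusted p under 0.05 in edgeR (9.14% of all names). The miR-34 and miR-449 microRNAs, which rise later in meiosis, were low at 0.0498% to 0.0571% in the controls and 0.0475% to 0.0507% in Tex15-/-, with 5 of 7 names tested and a median of -0.38. miR-34c-5p was at -0.19 ± 0.16, miR-34b-3p at 0.45 ± 0.20 and miR-34c-3p at -0.47 ± 0.49, no adjusted p was below 0.355, and none had an unadjusted p under 0.05 in edgeR.

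Markers of other cell types of the testis had no call by edgeR or DESeq2. At an unadjusted p under 0.05, edgeR gave 1 lower in the mesenchyme list, 2 lower in the blood list and none in the other marker lists, against 9.14% lower of all names. With names joined and without Tex15-/- replicate 3, edgeR called miR-142a-5p of the blood list. The mesenchyme and smooth muscle list summed to 7.12%, 6.52% and 6.91% in the controls and 5.17%, 3.95% and 5.99% in Tex15-/-, without overlap, with 10 names tested and a median of -0.39. This sum is carried by the miR-199 strands, while miR-143-3p was at 0.23 ± 0.18 (adjusted p = 0.524). Of the 10 tested names miR-143-3p alone was above 0, and 9 were below. These 9 include miR-199a-3p and miR-199b-3p, which have the same sequence. With a library left out, miR-199b-3p under its own name ranged from -0.762 to 0.983. For 3 of the 10 names the Tex15-/- libraries lay below all controls, against 17.4% of all names. Endothelial miR-126a took 4.75%, 3.77% and 4.04% in the controls and 3.14%, 3.14% and 4.11% in Tex15-/-, with both names tested and a median of -0.28. Its 3p arm was at -0.27 ± 0.17 and its 5p arm at -0.29 ± 0.24. For 3 of the 4 names of the Sertoli list the Tex15-/- libraries lay below all controls, against 17.4% of all names. The list summed to 0.332% to 0.354% in the controls and 0.257% to 0.347% in Tex15-/-, with 4 names tested and a median of -0.22. In it, miR-202-5p had 1845, 1929.9 and 2079.8 RPM in the controls and 1344, 1209 and 1835 in Tex15-/- (-0.42 ± 0.19, adjusted p = 0.356), miR-140-3p was at -0.28 ± 0.16 and miR-202-3p at 0.73 ± 0.39. The names of the blood list were scarce, at 0.0166% to 0.0245% in the controls and 0.0132% to 0.0168% in Tex15-/-, with 8 of 9 names tested and a median of -0.54. The list does not hold the erythroid pair miR-486a-5p and miR-486b-5p. The sum of that pair, given above, exceeded the whole list in every library and was higher in all Tex15-/- libraries than in the controls. miR-451a was at -0.46 ± 0.21, miR-142a-3p at -0.62 ± 0.28 and miR-144-3p at -0.98 ± 0.35 (adjusted p = 0.355 for each).

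Epithelial markers summed to 0.0792% to 0.0952% in the controls and 0.0638% to 0.0792% in Tex15-/-, with 10 of 17 names tested and a median of -0.30. miR-192-5p, miR-194-5p and miR-200b-3p were at -0.06 ± 0.20, -0.37 ± 0.21 and -0.44 ± 0.31. MicroRNAs listed as markers of striated muscle, liver and neurons were measured as well. The striated muscle list summed to 0.126% to 0.274% in the controls and 0.160% to 0.197% in Tex15-/-, with 2 of 8 names tested. These were miR-1a-3p (-0.29 ± 0.34) and miR-206-3p (0.52 ± 0.67), whereas miR-133a-3p was under 1 RPM in every library. Liver miR-122-5p had 1055, 1958 and 3176 RPM in the controls and 1866, 1969.9 and 2216 in Tex15-/- (-0.03 ± 0.36), a 3-fold spread within the controls. The neuronal list took 0.144% to 0.172% in the controls and 0.146% to 0.305% in Tex15-/-, with 3 of 7 names tested. miR-128-3p made up most of it (0.55 ± 0.29), with miR-9-5p at -0.39 ± 0.21 and miR-9-3p at -0.51 ± 0.27, and miR-124-3p was under 1 RPM in every library. No name of these lists had an adjusted p below 0.355. The part of the cell mixture in the differences described above was not tested.

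Arm use was compared by the share of the 5p arm. In 168 hairpins with both arms named, at least 100 reads in every library and no arm among the 64 joined names, the 5p arm held most reads in all 6 libraries in 85 and the 3p arm in 73. The minor arm was under 10% in both group means in 112, so that differences in points are small there. The 3 Tex15-/- libraries lay above all controls in 25 hairpins (14.9%) and below them in 24 (14.3%), and the group means differed by more than 10 points in 13. Among those with a small minor arm, the 5p share of miR-106b was 10.5%, 8.84% and 9.92% in the controls and 4.94%, 2.84% and 7.54% in Tex15-/-. The mature sequence of miR-574-5p has 858 exact matches in the genome, so its reads cannot be assigned to the miR-574 hairpin alone. The largest difference, that of miR-574 given above, was 33.2 points. It was followed by miR-30b, whose 5p arm made up 65.7%, 54.9% and 65.0% in the controls and 47.8%, 27.6% and 54.2% in Tex15-/-, and by miR-202, with 78.5%, 78.05% and 84.8% against 76.6%, 49.0% and 72.7%. In both, Tex15-/- replicate 2 was the lowest of the 6 libraries. Sequences shared with miR-30c-5p hold 1.03% of the reads of miR-30b-5p. These shares are descriptions without a test.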

How the data were processed

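Small RNA of 6 E16.5 testis samples, from pools of 6 testes each, was sequenced. Trimming, collapsing and annotation were done by the authors, who deposited raw counts per distinct sequence. The submitters' processing notes name cutadapt 1.8.1, Bowtie 1.2.1.1 and the build mm10. There were no molecular identifiers. Rows annotated as mature microRNA were reduced to distinct sequences of 16 to 26 nt and summed per name. Of the reads of names with a reference sequence, 99.996% lay within it, so reads that extend past it are not counted here, while reads that start or end inside it are. Reads annotated as microRNA hairpin made up 4.07% to 4.68% of microRNA reads. The depth of 5671330 to 34180789 mature reads limits only the rarest names.

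Counts were tested in R 4.3.3 with edgeR 4.0.16 (quasi-likelihood test, filterByExpr, Benjamini-Hochberg adjustment) on 3 against 3 libraries, with the mature total as library size. Names were kept with 15 counts in total and, in at least 3 libraries, the level of 10 counts in a median-sized library. Replicate counts per name differed far beyond sampling noise, and these counts include the sequences whose name changes between libraries. The labels do not say whether the pools came from separate litters, so p-values measure the spread between these libraries. Shares were compared by exact permutation tests. Genome matches and sums used Python 3.11.15, numpy 2.4.6 and pandas 2.3.3. Named are the 10 most abundant names, all called names, the names with the 10 smallest p-values, and the 3 leading members and any called member of each list. Names outside this rule (in particular miR-3470a, miR-3471, miR-1194, miR-690, miR-3473a, miR-3473e, miR-142a-5p, miR-154-3p, let-7a to let-7g, miR-17-5p, miR-93-5p, miR-106b-5p, miR-871-5p, miR-574-3p, miR-30b and miR-124-3p) were chosen after their values were seen. The members, lists and tests were chosen with earlier results of these data known. Alternatives were other library sizes, filters, tests, read lengths, sequence sets and thresholds, a replicate block, and each library left out. The script was tested on simulated counts.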

Additional observations from a re-analysis of the deposited data

How the results depend on the processing

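The number of names past the threshold was 5 with the mature total, with TMM factors, the 18 to 32 nt total, DESeq2 size factors, the newer quasi-likelihood estimate, 20 to 24 nt reads or an absolute log2 fold change above 1, and 4 with at least 10 counts in every library. A setting of sequences with 1 name in their table only repeats the main fit, because every sequence has 1 name in its table. This repeat is no further check, but it is included in the counts of settings. The number of names was 14 with DESeq2 1.42.0, 15 without a filter on low counts and 0 at an adjusted p under 0.01. It was 0 with reads identical to the reference sequence (edgeR, 400 tested, 58 at an unadjusted p under 0.05). Chosen after seeing the data were names joined where they share sequences (3), sequences of 1 microRNA only (3), joined names with DESeq2 (9) and joined names with the replicate block (1, miR-3470b). With each library left out in turn the number ranged from 0 to 7, and with joined names from 0 to 14. It was 0 without control 1 in both cases (edgeR, 48 and 56 at an unadjusted p under 0.05), 0 without control 2 (52; joined 2), 5 without control 3 (joined 2), 2 without Tex15-/- replicate 1 (joined 5), 5 without replicate 2 (joined 4) and 7 without replicate 3 (joined 14). The number of calls thus depends on single libraries. With the replicate number as a replicate block no name passed (0; 107 at an unadjusted p under 0.05). Same-numbered libraries deviated from their group means with correlations of 0.0872, 0.151 and 0.124, not all over 0.1, so the numbers are not taken as pairs, although each library correlated best with its own number. Over 28 settings miR-3470b was called in 23 (log2 fold change -2.10 to -1.67, adjusted p up to 0.0823) and miR-574-5p in 21 (1.68 to 2.07, up to 0.135), and over 27 miR-669c-5p in 18 (1.32 to 1.59, up to 0.163). Without control 3, miR-669o-3p was called in place of miR-669c-5p. No named microRNA past the threshold changed sign under its own name. For miR-466b-3p the 16 settings compared leave out those with joined names. In the joined fit given above, the group that holds it had the other sign. Of 1533 values of the 60 named microRNAs 46 had another sign, none of them called. The difference of the microRNA share was 0.393 points among 21 to 23 nt reads and 0.0768 with distinct sequences counted once (1.40 to 5.87 with a library left out, lowest without Tex15-/- replicate 2). With distinct sequences counted once, the 22 nt share differed by 0.747 points and the U share by 0.757, both with overlapping groups, and the 5′ start share turned from -0.130 to 1.64. With a library left out these 3 ranged from 1.87 to 3.48, from 2.73 to 4.72 and from -0.216 to -0.0221, and the share of the 10 leading names from 0.293 to 1.45. The cause of these shifts was not tested.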
